A study of Mus musculus with 4 samples.

Results

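The genes described here are 40 genes that splenic macrophages are known to use, read in RNA from sorted CD8 T cells. They were followed across 4 Affymetrix mouse expression arrays, 2 of Ly49+ and 2 of Ly49- cells. Both groups were CD44+CD122+ CD8 cells sorted from wild-type B6 spleen. The Ly49+ group (CD44+CD122+Ly49+) is labelled CD8 Treg and the Ly49- group (CD44+CD122+Ly49-) conventional memory cells. The labels give no age, no treatment and no number of animals, nor do they say that the replicates came from separate mice, so each p-value reflects the spread of these samples alone, and that spread may be technical. Arrays are called by group and replicate number. Of the 40 genes, 39 had a probe set that named them alone, out of 18193 genes measured in this way. For each gene the probe set was chosen by its mean intensity over the 4 arrays, the highest being kept, and these means are given as a description. Trf, which encodes the iron carrier transferrin, had no probe set of its own and is not reported.

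Macrophages of the splenic red pulp engulf aged red blood cells, break down their haem and return the iron to the blood. Their identity depends on the Ets-family transcription factor Spi-C, and growth factor signals through the CSF1 receptor keep macrophages alive. Other macrophages line the marginal zone, where they take up blood-borne particles. None of these programmes belongs to T cells, although proteases of the lysosome are made by most cells.

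Markers of the labelled cell type were bright in both groups, which does not measure how many other cells were present. Cd8a, a chain of the CD8 coreceptor, read 18009 and 18363 in Ly49+ cells against 19070 and 18793 in Ly49- cells, Cd8b1 between 14474 and 15466, and Cd3e, a chain of the T-cell receptor complex, between 18113 and 20076. Of 14 measured CD8 T-cell genes, limma called 0 higher and 0 lower (2 in each direction at an unadjusted p under 0.05), and their log2 differences lay between -0.12 and 0.16. Background was taken as the highest of 27 unspiked bacterial control probe sets, which read 60.5 to 70.3 over the 4 arrays. Array medians lay between 188.5 and 190.4 and pairwise correlations of log2 values between 0.996 and 0.998. The 3' to 5' ratio of the Gapdh control was 1.70 to 1.71 on the Ly49+ and 1.74 to 1.75 on the Ly49- arrays, and that of Actb 1.26 to 1.29 against 1.34 to 1.37.

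Most of the macrophage genes were read well above background in both groups and were higher in the Ly49+ cells. Differences are given as log2(intensity + 16) of Ly49+ minus Ly49-, with folds on the same scale, which understates the change of dim genes. Limma was fitted on all 18193 genes, and a gene was called where its Benjamini-Hochberg adjusted p was under 0.05. It called 27 of the 39 genes higher, where 1.93% of all genes were called higher. Among the 12485 genes above background on all 4 arrays, 2.52% were called higher, and 37 of the 39 macrophage genes lay above background in this way. None of the 39 was called lower, against 2.04% of all genes, and 0 were lower at an unadjusted p under 0.05. Both Ly49+ arrays lay above both Ly49- arrays for 34 of the 39 genes, against 13.2% of all genes. The median log2 difference was 0.64 for the 39 genes and -0.04 for all genes. Among the 27 called genes it ran from 0.47 to 1.26, and 5 of them differed at least 2-fold. In bulk RNA, fewer cells of a type and less RNA per cell cannot be told apart. The direction held for all 27 when any 1 array was left out, but the calls fell to 23 without Ly49+ array 1, 16 without Ly49+ array 2, 10 without Ly49- array 1 and 7 without Ly49- array 2.

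**Figure D1:**
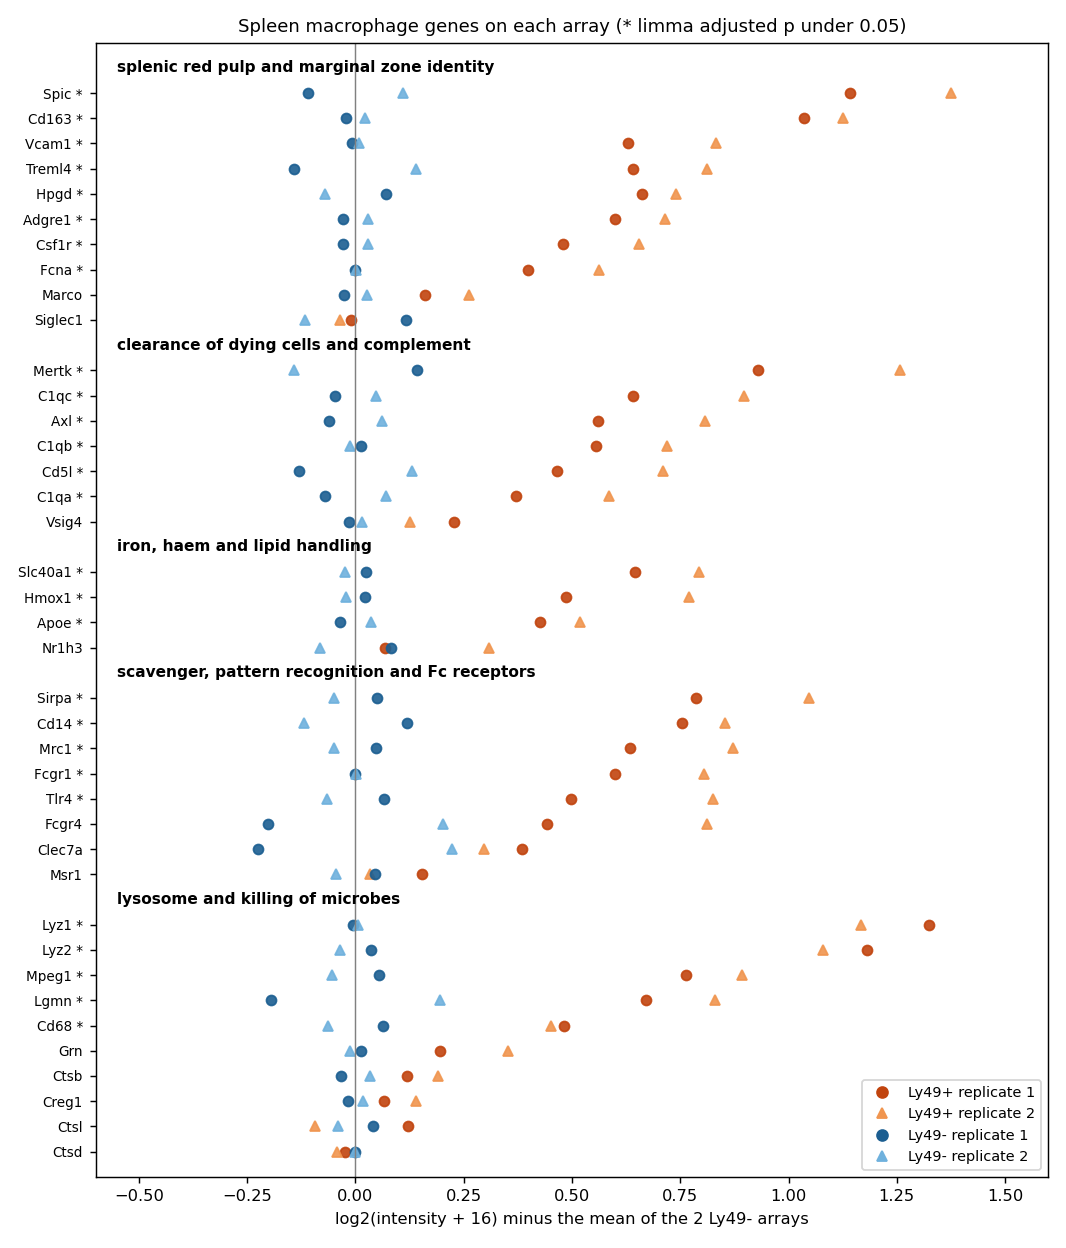
Each row is a macrophage gene and each point an array, placed by its log2(intensity + 16) minus the mean of the 2 Ly49- arrays; circles are replicate 1 and triangles replicate 2, and an asterisk marks a limma adjusted p under 0.05. For 34 of the 39 genes both Ly49+ points lie to the right of both Ly49- points, while Siglec1, Msr1, Nr1h3 and Ctsl overlap and Ctsd lies slightly to the left.

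Intensities were also set beside those of the controls and of the CD8 T-cell genes. The 27 called genes had a median intensity of 1153 in Ly49+ and 654 in Ly49- cells, while the 14 CD8 T-cell genes had medians of 14360 and 14483. The dimmest CD8 T-cell gene read 5650 in Ly49+ cells, above the brightest called macrophage gene, Vcam1, at 5324. The 12 genes that were not called ran more widely, from Vsig4 under the bacterial controls to Ctsb at 10378 in Ly49+ cells, so that Ctsb and Ctsd lay within the range of the CD8 T-cell genes. Probe sets bind with different strength, so these intensities give no ratio of transcripts between genes.

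**Figure D2:**
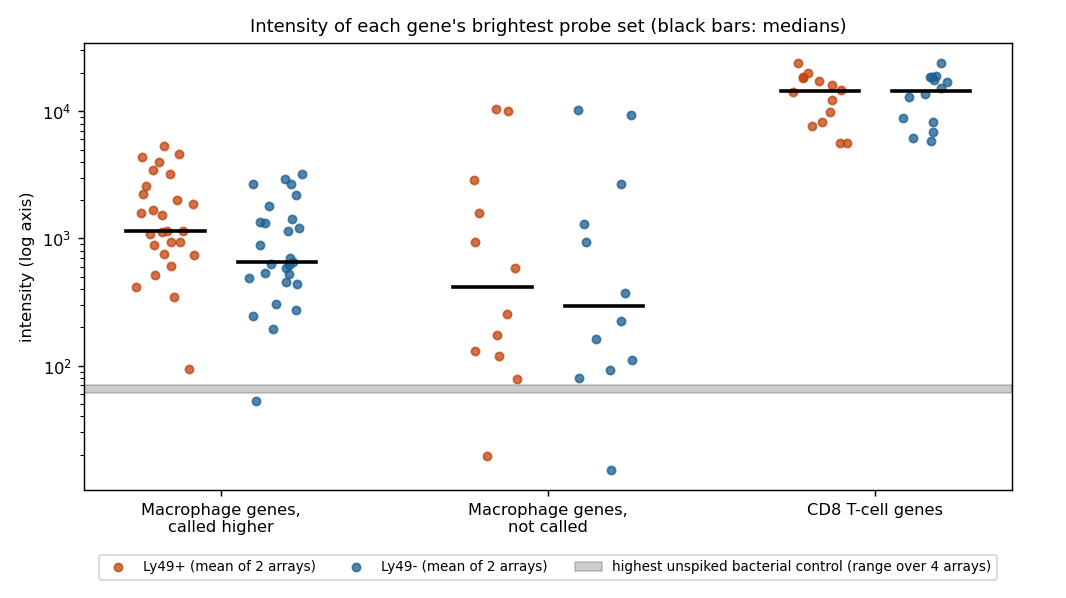
Each point is the intensity of a gene's brightest probe set, on a log axis, as the mean of 2 arrays per group, with medians as black bars and the range of the highest bacterial control as a grey band. The called macrophage genes lie mostly above the band and below the CD8 T-cell genes, and Tlr4 is the only one of them whose Ly49- mean, 53.1, lies under the band.

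Genes that moved together were looked up in the promoter table of RefSeq (build GRCm38.p6), which held 27 of the 39 genes and 18 of the 27 called ones. The 250 bases before the start listed first for each gene were searched on both strands. GAGGAA, the core of the motif bound by PU.1 and Spi-C, was present before 11 of the 18 called genes and 5 of the 9 others, against 23.1% of 27025 genes in the table and 22.7% of the measured ones. The longer GAGGAAGT, which contains it, was present before 2 of the 27, C1qc and Fcgr4, against 2.44%. TGCTGA is part of the Maf recognition element to which Bach1 binds. It was present before 5 of the 18 called genes and 1 of the 9 others (Ctsl). The shares were 15.8% of all 27025 genes and 14.4% of the measured ones. The E-box CACGTG was present before none of the 18 and 2 of the 9 others (Ctsd and Ctsl), against 6.05% and 7.56%. A match is a description of letters and not of binding. The windows of the neighbouring genes C1qb and C1qc and of Cd68 are shown because they hold the Ets core, in capitals on either strand. That of Spic, the gene with the largest difference, is shown because it holds TGCTGA, likewise in capitals. The C1qb window also holds TGCTGA, left in small letters.
C1qb, chr4:136886201-136886450, minus strand: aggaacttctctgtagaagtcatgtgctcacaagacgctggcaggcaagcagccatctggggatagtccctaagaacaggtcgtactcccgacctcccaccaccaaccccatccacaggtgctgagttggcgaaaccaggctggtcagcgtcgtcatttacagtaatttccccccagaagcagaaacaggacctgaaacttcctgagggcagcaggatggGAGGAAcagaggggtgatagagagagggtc
C1qc, chr4:136892915-136893164, minus strand: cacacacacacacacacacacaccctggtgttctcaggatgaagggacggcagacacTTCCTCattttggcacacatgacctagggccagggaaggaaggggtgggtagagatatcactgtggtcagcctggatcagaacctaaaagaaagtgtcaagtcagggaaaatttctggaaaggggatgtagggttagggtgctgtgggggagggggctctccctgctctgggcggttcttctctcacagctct
Cd68, chr11:69666171-69666420, minus strand: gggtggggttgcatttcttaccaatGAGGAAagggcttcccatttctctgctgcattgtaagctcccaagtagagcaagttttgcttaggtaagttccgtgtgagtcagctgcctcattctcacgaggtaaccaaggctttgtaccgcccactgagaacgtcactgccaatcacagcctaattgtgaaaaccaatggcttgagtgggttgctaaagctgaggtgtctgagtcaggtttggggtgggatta
Spic, chr10:88683024-88683273, minus strand: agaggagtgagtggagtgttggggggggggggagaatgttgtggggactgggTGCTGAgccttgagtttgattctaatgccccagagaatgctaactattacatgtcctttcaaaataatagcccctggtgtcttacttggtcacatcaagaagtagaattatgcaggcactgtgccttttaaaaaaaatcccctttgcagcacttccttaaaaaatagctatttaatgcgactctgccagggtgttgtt

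Of the 10 genes listed for the identity of red pulp and marginal zone macrophages, 8 rose in Ly49+ cells. Spic, which encodes Spi-C, read 1029 and 1211 in Ly49+ cells against 423 and 495 in Ly49- cells (probe set 1449134_s_at), a difference of 1.26 ± 0.11 SE or 2.39-fold (limma adjusted p = 0.00074). Cd163, the scavenger receptor for haemoglobin bound to haptoglobin, read 1100 and 1172 against 520 and 537, or 2.11-fold higher (adjusted p = 0.00029). Vcam1, an adhesion molecule that red pulp macrophages carry, read 4946 and 5702 against 3174 and 3213, or 1.66-fold higher (adjusted p = 0.00095). In each of these genes the lowest Ly49+ array stood clear of the highest Ly49- array. Csf1r, the receptor for the macrophage growth factor, read 3758 and 4242 against 2635 and 2746 (difference 0.57, adjusted p = 0.0028). Adgre1, which encodes the classical macrophage antigen F4/80, read 896 and 973 against 574 and 599 (difference 0.66, adjusted p = 0.0045). Hpgd, the enzyme that inactivates prostaglandins, read 1121 and 1185 against 739 and 668 (difference 0.70, adjusted p = 0.0033). Again the groups did not overlap. Treml4, a receptor of splenic macrophages and dendritic cells, read 692 and 780 against 395 and 484 (difference 0.73, adjusted p = 0.011), and Fcna, the lectin ficolin A, 1882 and 2110 against 1422 and 1424 (difference 0.48, adjusted p = 0.0084).

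The other 2 identity genes, which encode receptors of marginal zone macrophages, were dim and did not pass. Marco, a scavenger receptor, read 126 and 137 against 109 and 114 (difference 0.21, adjusted p = 0.36), and Siglec1, which encodes the sialic acid receptor CD169, read 79.2 and 77.6 against 88.0 and 72.6 (difference -0.02, adjusted p = 0.95). Without Ly49- array 1 the Siglec1 difference was 0.09. None of the 10 identity genes was lower. Spic, Cd163 and Vcam1 passed whichever array was left out. Leaving out Ly49- array 2 gave an adjusted p of 0.060 for Csf1r, 0.060 for Hpgd, 0.066 for Adgre1, 0.059 for Treml4 and 0.11 for Fcna. Leaving out Ly49- array 1 gave 0.067 for Csf1r, 0.070 for Adgre1, 0.11 for Treml4 and 0.094 for Fcna, and leaving out Ly49+ array 2 gave 0.053, 0.0997 and 0.090 for Adgre1, Treml4 and Fcna. Without a trend of the spread on the level, Fcna had 0.051 and Treml4 0.052.

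Receptors and opsonins for the clearance of dying cells rose as well. Mertk, a receptor kinase that recognises dying cells through bridging proteins, read 532 and 673 against 302 and 245, a difference of 1.09 ± 0.14 SE or 2.13-fold (adjusted p = 0.0044). Axl, a kinase of the same family, read 1705 and 2027 against 1104 and 1201 (difference 0.68, adjusted p = 0.0049). Cd5l, a secreted protein of tissue macrophages, read 852 and 1013 against 558 and 672 (difference 0.59, adjusted p = 0.028). The 3 chains of the complement component C1q, encoded side by side on chromosome 4, moved the same way. C1qb read 4315 and 4830 against 2956 and 2904 (difference 0.64, adjusted p = 0.0012), C1qc 1385 and 1656 against 853 and 912 (difference 0.77, adjusted p = 0.0037) and C1qa 696 and 810 against 508 and 562 (difference 0.48, adjusted p = 0.041). Vsig4, a complement receptor of tissue macrophages, read 14.9 to 20.6 and was not above background on any array. Of these 7 genes, 6 were higher and 1 did not pass.

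In each of these 6 genes both Ly49+ arrays lay above both Ly49- arrays, and none of the 6 passed in every fit that left out 1 array. Without Ly49- array 2 the adjusted p was 0.0503 for C1qb, 0.068 for C1qc, 0.088 for Mertk, 0.073 for Axl, 0.095 for Cd5l and 0.16 for C1qa. Without Ly49- array 1 it was 0.077 for C1qc, 0.052 for Mertk, 0.090 for Axl, 0.17 for Cd5l and 0.18 for C1qa. Without Ly49+ array 2, C1qa had 0.27 and Cd5l 0.20, and C1qa had 0.073 without Ly49+ array 1, 0.058 with a pseudocount of 64 and 0.096 without a trend of the spread. Cd5l had 0.10 without a trend, and Axl 0.11 when both of its probe sets were averaged.

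Genes for the handling of haem, iron and lipid rose in 3 of 4 cases. Slc40a1, which encodes ferroportin, the exporter of iron from the cell, read 4176 and 4624 against 2709 and 2618, a difference of 0.72 ± 0.06 SE or 1.65-fold (adjusted p = 0.00058). Hmox1, the haem-degrading enzyme haem oxygenase, read 3096 and 3773 against 2240 and 2173 (difference 0.63, adjusted p = 0.0057). Apoe, the lipid carrier apolipoprotein E, read 858 and 916 against 618 and 651 (difference 0.47, adjusted p = 0.018). In these genes every Ly49+ array was the higher. Nr1h3, which encodes the oxysterol sensor LXR alpha, read 234 and 279 against 236 and 209, so the groups overlapped (difference 0.19, adjusted p = 0.48). Slc40a1 passed whichever array was left out, Hmox1 had 0.089 without Ly49- array 1, 0.12 without Ly49- array 2 and 0.060 without a trend of the spread, and Apoe had 0.082 without Ly49+ array 1, 0.15 without Ly49+ array 2, 0.12 without Ly49- array 1 and 0.11 without Ly49- array 2.

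Among receptors for debris, microbes and antibody, 5 of 8 rose. Sirpa, the receptor for the signal CD47 that restrains engulfment, read 2341 and 2805 against 1398 and 1304, a difference of 0.92 ± 0.09 SE or 1.89-fold (adjusted p = 0.0012). Mrc1, the mannose receptor, read 2046 and 2417 against 1358 and 1269 (difference 0.75, adjusted p = 0.0026). Cd14, a co-receptor for bacterial lipopolysaccharide, read 335 and 359 against 210 and 175 (difference 0.80, adjusted p = 0.0083). Fcgr1, the high-affinity receptor for IgG, read 383 and 444 against 247 and 248 (difference 0.70, adjusted p = 0.011). These genes showed no overlap between groups. Tlr4, the lipopolysaccharide receptor, was dim, at 81.5 and 106 against 56.3 and 49.9, and since neither Ly49- array was above background it is given as at least 1.29-fold higher, a bound against the bacterial controls (adjusted p = 0.025). Fcgr4, another activating IgG receptor, read 506 and 658 against 318 and 425 and did not pass (difference 0.63, adjusted p = 0.074). The beta-glucan receptor gene Clec7a (124 and 116 against 75.9 and 109, adjusted p = 0.28) and the scavenger receptor gene Msr1 (183 and 167 against 169 and 158, adjusted p = 0.73) did not pass either.

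None of these 5 receptor genes kept its call in every fit. Without Ly49- array 2 the adjusted p was 0.057 for Sirpa, 0.073 for Mrc1, 0.10 for Cd14, 0.12 for Fcgr1 and 0.24 for Tlr4. Without Ly49- array 1 it was 0.055 for Mrc1, 0.055 for Cd14, 0.11 for Fcgr1 and 0.13 for Tlr4, and without Ly49+ array 2 it was 0.068 for Cd14, 0.094 for Fcgr1 and 0.14 for Tlr4. Averaging the probe sets of a gene gave 0.064 for Fcgr1 and 0.26 for Tlr4, and Tlr4 had 0.078 without a trend of the spread.

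Of the 10 lysosomal and antimicrobial genes, 5 rose and 5 did not pass. Lyz2, the lysozyme of macrophages, read 1129 and 1051 against 502 and 477, a difference of 1.13 ± 0.09 SE or 2.19-fold (adjusted p = 0.00029). Mpeg1, which encodes the pore-forming protein perforin-2, read 3079 and 3372 against 1878 and 1742 (difference 0.83, adjusted p = 0.00046). Cd68, a glycoprotein of macrophage lysosomes, read 1697 and 1662 against 1266 and 1158 (difference 0.47, adjusted p = 0.0090). Lgmn, the protease legumain, read 487 and 546 against 260 and 346 (difference 0.75, adjusted p = 0.021). In all of these the groups were apart. The cathepsin genes, which encode lysosomal proteases, did not pass. Ctsb read 10114 and 10642 against 9108 and 9530 (difference 0.15, adjusted p = 0.098), Ctsd 10093 and 9956 against 10260 and 10258 (difference -0.03, adjusted p = 0.70) and Ctsl 1015 and 872 against 958 and 905 (difference 0.01, adjusted p = 0.96). Grn, which encodes progranulin, read 1491 and 1663 against 1311 and 1288 (difference 0.27, adjusted p = 0.089), and Creg1, a lysosomal glycoprotein, 2799 and 2948 against 2643 and 2706 (difference 0.10, adjusted p = 0.38).

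Lyz1, the neighbouring lysozyme gene on chromosome 10, is nearly identical to Lyz2 in sequence, and its probe sets disagreed. The brightest, 1436996_x_at, read 1661 and 1487 against 651 and 656 (difference 1.25, adjusted p = 0.00013), and 1439426_x_at read 953 and 889 against 381 and 378. The ending _x_at marks probe sets that may also detect other transcripts. The third, 1450822_at, read 70.3 and 74.0 against 89.3 and 74.4, close to the bacterial controls (difference -0.15, adjusted p = 0.56 when probe sets of this kind were left out). The Lyz1 rise is therefore uncertain as to the gene. Lyz1 is counted among the 5 lysosomal genes that rose, and 0 were lower. Lyz2 and Mpeg1 passed whichever array was left out. Cd68 and Lgmn passed in none of these 4 fits, with an adjusted p for Cd68 of 0.085 without Ly49+ array 1, 0.070 without Ly49+ array 2, 0.055 without Ly49- array 1 and 0.095 without Ly49- array 2, and for Lgmn of 0.071, 0.14, 0.13 and 0.058 in the same order and 0.082 without a trend of the spread.

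Further probe sets existed for 18 of the 39 genes. Of the 32 further probe sets, 26 were above background on at least 1 array. Of these, 23 had a difference above 0 and 19 had both Ly49+ arrays above both Ly49- arrays. By brightest probe set, the latter held for 13.2% of all genes. The further probe sets read genes already counted, so they are not separate support. The other probe sets of Vcam1 gave differences of 0.89 and 0.70, those of C1qb 0.60 and 0.69, that of Slc40a1 0.93, that of Spic 1.35 and those of Csf1r 0.54 and 0.43. For Spic both probe sets end in _s_at or _x_at, so none was free of possible cross-hybridisation. The Sirpa differences were smaller on dimmer probe sets, from 0.92 on the brightest to 0.46 and 0.21 on the others, and the second probe set of Fcgr1 gave 0.14. The second probe set of Axl read 10.6 to 12.2, below the controls.

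**Figure D3:**
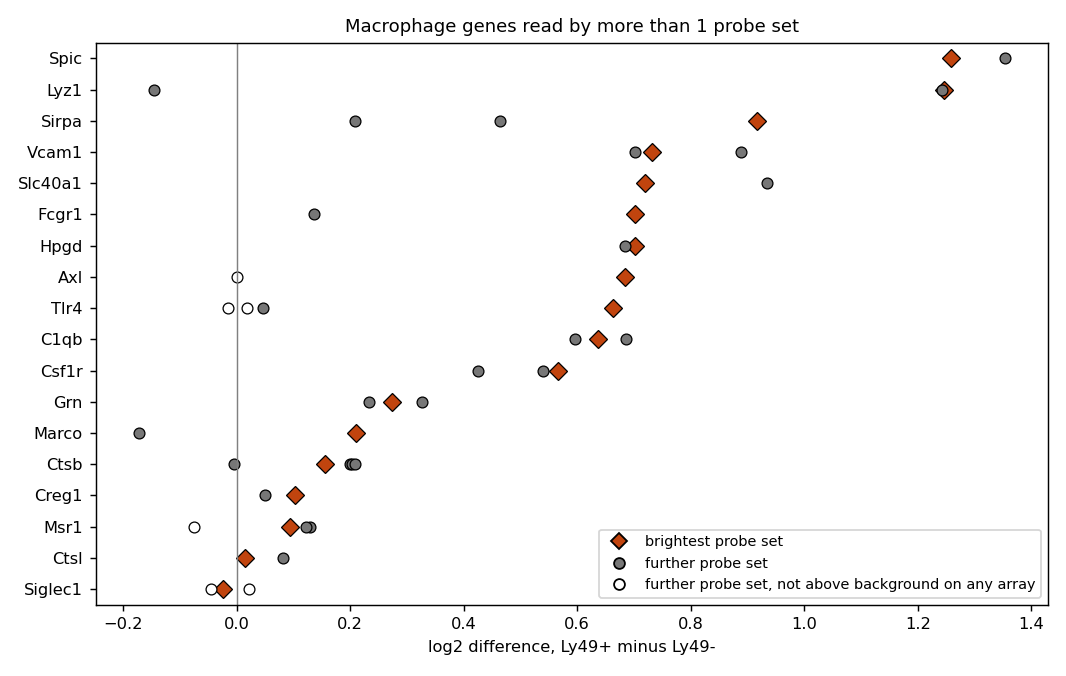
For each of the 18 macrophage genes with several probe sets, the diamond is the log2 difference (Ly49+ minus Ly49-) of the brightest probe set and circles are those of the others, open where no array was above background. Most further probe sets lie near the diamond for Spic, Vcam1, Hpgd, C1qb and Csf1r. Lyz1, Sirpa, Axl, Fcgr1 and Tlr4 have points far to its left, that of Axl being open. The second probe set of Marco lies at -0.17 against 0.21 for its diamond.

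The replicates of the Ly49+ group differed in these genes. Replicate 2 read above replicate 1 in 30 of the 39 genes, against 50.6% of all genes, with a median log2 gain of 0.16 for the 39 genes and 0.00 for all genes. In the Ly49- group replicate 2 was above replicate 1 in 21 of the 39 genes, against 49.5% of all genes, with a median gain of 0.00. Lyz2, Lyz1 and Cd68 were among the genes that ran the other way in Ly49+ cells, with replicate 1 the brighter. The median difference of the 39 genes was 0.74 without Ly49+ array 1 and 0.50 without Ly49+ array 2.

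A further list of macrophage genes outside the 40 rose in part. Of 47 measured, 15 were higher, 2 lower and 30 did not pass, with a median difference of 0.13. Over all genes, 1.93% were called higher and 2.04% lower. At an unadjusted p under 0.05, 22 of the 47 were higher and 5 lower. Fcer1g and Tyrobp, adaptors that NK cells use as well, differed by 1.22 and 0.61 (adjusted p = 6.5e-05 and 0.0012). Clec4n, which encodes the fungal receptor Dectin-2, read 520 and 558 against 298 and 251 (difference 0.94, adjusted p = 0.0034). Timd4, a receptor for phosphatidylserine on dying cells, read 179 and 159 against 99.7 and 81.5 (difference 0.80), and Cd36, a scavenger receptor, 193 and 200 against 108 and 110 (difference 0.76). Slc11a1, a metal transporter of the phagosome, differed by 0.61 and Ms4a7 by 0.68. Timd4, Cd36, Slc11a1 and Ms4a7 were called higher, but fits with an array left out were not examined for them. Pros1, which encodes protein S, a bridging ligand of MERTK, was lower at 456 and 551 against 866 and 909 (difference -0.80, adjusted p = 0.0046). The chemokine receptor gene Cx3cr1 was lower too, at 111 and 122 against 219 and 213 (difference -0.81, adjusted p = 0.0056). Without Ly49- array 2 the adjusted p was 0.060 for Clec4n, 0.10 for Pros1 and 0.081 for Cx3cr1, and without Ly49- array 1 it was 0.076 for Pros1 and 0.081 for Cx3cr1, which had 0.093 with all its probe sets averaged. Itgam, the integrin of monocytes and many macrophages, read 31.9 to 38.8, below background on all arrays, and Spi1, which encodes PU.1, read 141 and 156 against 136 and 144 (adjusted p = 0.79). Among 24 other lysosomal genes, 1 was higher (Ctsh, difference 0.62) and 0 lower, with 2 lower at an unadjusted p under 0.05 and a median of -0.07; Ctsh missed the threshold without Ly49+ array 2 (adjusted p = 0.11), Ly49- array 1 (0.12) or Ly49- array 2 (0.10).

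Markers of other cell types were read beside these genes, and their part in the macrophage result was not tested. The counts below stand against 1.93% of all genes called higher and 2.04% called lower. The summed intensity of the 39 macrophage genes was 73061 and 79482 in Ly49+ cells against 54846 and 55317 in Ly49- cells, while that of the 14 CD8 T-cell genes was 191761 to 192142 against 191931 to 192896. Of 12 NK-cell genes 6 were higher and 0 lower (8 higher and 1 lower at an unadjusted p under 0.05). The 6 were Styk1 (difference 1.57), Cd244a (1.26), Fcer1g (1.22), Klrk1 (0.76), Tyrobp (0.61) and Itga2. Differences of the 12 genes ran from -0.95, in a gene that was not called, to 1.57, with a median of 0.38. Sums of the 12 genes were 68997 to 69526 against 63685 to 64178. On all arrays 11 of the 12 were above background, while the NK receptor gene Ncr1 was below it. Of 15 B-cell genes 5 were higher and 1 lower (8 higher and 1 lower at an unadjusted p under 0.05), with a median difference of 0.28. Their sums were 53205 to 56457 against 40895 to 41311. The 5 called higher were Cd22 (difference 1.05) and the MHC class II genes Cd74, H2-Aa, H2-Ab1 and H2-Eb1 (0.65 to 0.78), which macrophages and dendritic cells also express. Cd79b of the B-cell receptor was lower (-0.28). On all arrays 12 of the 15 B-cell genes were above background, while Pax5 and Fcer2a were below it. Of 14 dendritic-cell genes, 2 were higher (Xcr1, 0.95, and Irf8, 0.55) and 1 lower (Bst2, -0.32). At an unadjusted p under 0.05, 7 were higher and 3 lower, and the median difference of the 14 was 0.21. Their sums were 19464 to 21386 against 21049 to 22933. On all arrays 12 of the 14 were above background, while Cd209a and Clec10a were below it. Xcr1 and Irf8 missed the threshold without Ly49- array 1 (adjusted p = 0.057 and 0.092) or 2 (0.073 and 0.077), Irf8 also without Ly49+ array 2 (0.066). For Bst2 the adjusted p was 0.12 without Ly49+ array 1, 0.084 without Ly49+ array 2, 0.081 without Ly49- array 1, 0.11 without Ly49- array 2 and 0.076 without a trend of the spread.

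The lists of other myeloid, blood and stromal cells held calls in both directions, where 1.93% of all genes were called higher and 2.04% lower. Of 9 monocyte genes 1 was higher (Ccr2, 0.30) and 1 lower (Cx3cr1), with sums of 19120 to 19184 against 19361 to 19757. Of 11 neutrophil genes 0 were higher, also at an unadjusted p under 0.05, and the calprotectin genes S100a8 (-0.49) and S100a9 (-0.53) were lower, with sums of 1562 to 1669 against 2055 to 2150. Of 9 erythroid genes limma called 0 in either direction (3 higher and 0 lower at an unadjusted p under 0.05), and the haemoglobin gene Hba-a2 read 10445 and 10444 against 9476 and 9596 (difference 0.13, adjusted p = 0.096). The erythroid sums were 20787 to 20971 in Ly49+ against 19945 to 20013 in Ly49- cells, so both Ly49+ arrays were the higher. Of 8 platelet genes 1 was higher, Vwf, which was below background in Ly49- cells, and 1 lower, Itgb3 (-0.39), with sums of 3346 to 3401 against 4107 to 4160. Of 7 plasma-cell genes 0 were higher, also at an unadjusted p under 0.05, and 1 was lower, the immunoglobulin gene Igha (-1.11), with sums of 11500 to 11858 against 11849 to 13086. Of 8 stromal and endothelial genes 0 were called, and 0 had an unadjusted p under 0.05, with sums of 1795 to 1988 against 1874 to 1967. The calls of Ccr2, S100a8, S100a9 and Vwf were lost in each of the 4 fits that omitted an array, where adjusted p-values were 0.084 to 0.17 for Ccr2, 0.11 to 0.22 for S100a8, 0.060 to 0.092 for S100a9 and 0.091 to 0.27 for Vwf, and that of Itgb3 without Ly49+ array 2 (0.056), Ly49- array 1 (0.057) or Ly49- array 2 (0.073). Ccr2 also lost its call with probe sets averaged (0.092) or no trend (0.098), Itgb3 with probe sets averaged (0.067) and Vwf with no trend (0.082).

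**Figure D4:**
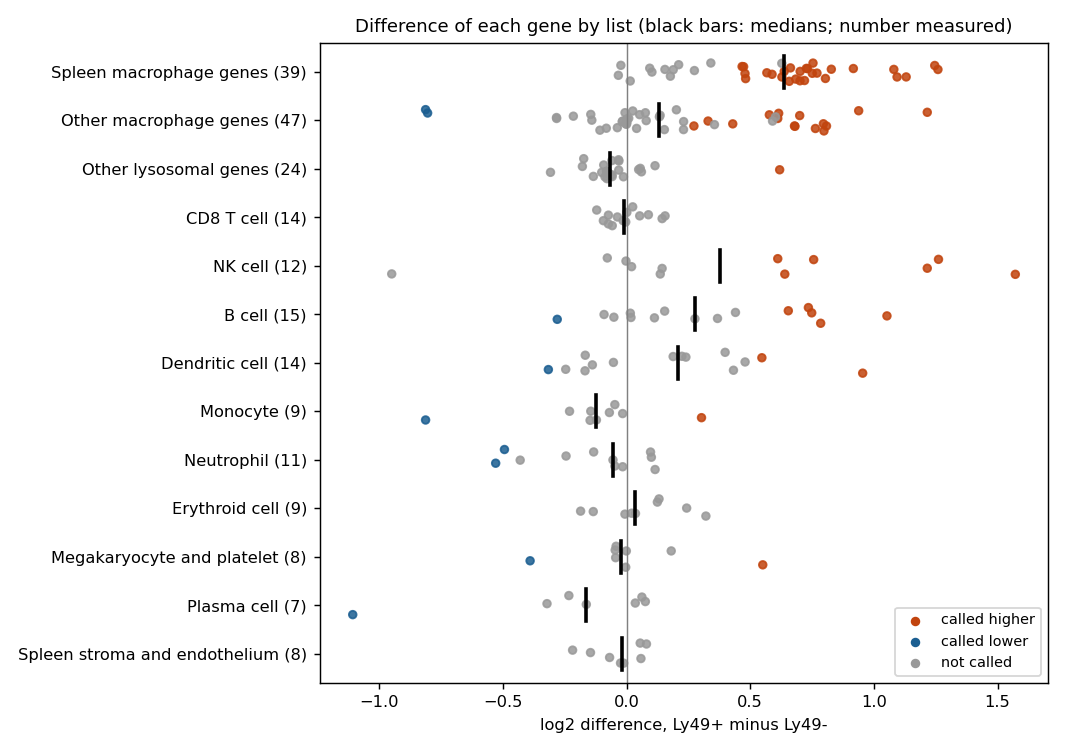
Each point is a gene, placed by its log2 difference (Ly49+ minus Ly49-) and coloured by whether limma called it higher, lower or neither; black bars are list medians and the number of measured genes stands beside each name. The 39 macrophage genes have a median of 0.64 and no point called lower, and the CD8 T-cell genes lie between -0.12 and 0.16.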

How the data were processed

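Affymetrix arrays of 4 samples were used, 2 per group, grouped and numbered by sample title. The authors deposited 1 linear intensity for each probe set (8.32 to 43959, a scale read from the values), with nearly equal distributions on all arrays; how these were made is not stated in the labels, and scanner files were not used. Of 45101 probe sets, 34945 named 1 gene in the platform annotation, giving 18193 genes, each read by its brightest probe set. Intensities were transformed to log2(intensity + 16) without further normalization and fitted with limma 3.58.1 in R 4.3.3 (lmFit, then eBayes with a trend; the model held the group alone, leaving 2 residual degrees of freedom beside 6.66 prior ones). Adjusted p-values are by Benjamini-Hochberg, called under 0.05. Python 3.11.15 and the R package data.table (1.17.8) handled the files. The fit was tested on simulated data. Precision is limited by having 4 arrays. The alternatives tried were quantile normalization, pseudocounts of 1 and 64, a filter on dim genes, averaged probe sets, no _x_at or _s_at probe sets, no trend or a robust spread, a looser threshold of 0.1, a block for the replicate number and the omission of each array in turn. The macrophage genes and the other lists were chosen with earlier results of these data known, so their counts are a description. Every measured macrophage gene was named. Of the other lists only some genes were named, and no single rule chose them. They include Cd8a, Cd8b1, Cd3e, Spi1, Ncr1 and called genes, some picked after their values were seen.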

Additional observations from a re-analysis of the deposited data

How the results depend on the processing

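The count of 27 macrophage genes higher in Ly49+ cells stayed within 1.5 times of itself, and that of genes lower stayed at 0, under quantile normalization (27 higher), pseudocounts of 1 (27) and 64 (26), the brighter genes alone (27), averaged probe sets (24), no _x_at or _s_at probe sets (25), no trend (20), a robust spread (27) and an adjusted p under 0.1 (30). Leaving out 1 array gave 7 to 23 higher, 0 lower and a median difference of 0.50 to 0.74; the fits without a Ly49- array had the fewest, where a lone array is assumed to vary like the other group. The median was 0.53 with averaged probe sets, which mix in dimmer ones. Replicate numbers are shared by the groups but no label says that they pair samples. The replicate differences of the groups correlated at 0.25 across all genes, and a replicate block called 30 higher, including the 27, while over all genes the calls moved from 352 higher and 371 lower to 618 and 915. Over all genes, calls also moved to 218 higher and 152 lower without a trend, to 503 and 749 at an adjusted p under 0.1, and to 72 to 184 higher and 28 to 103 lower with 1 array left out. Signs changed for Lyz1 and for genes that did not pass. Without _x_at or _s_at probe sets, Lyz1 gave -0.15. With averaged probe sets Ptprc gave 0.0018. Leaving out 1 array gave differences of -0.093 to 0.12 for Ctsl, -0.14 to 0.092 for Siglec1, -0.53 to 0.089 for Col1a1, -0.067 to 0.23 for Cdh5, -0.15 to 0.014 for Madcam1 and -0.067 to 0.049 for Ptprc. For genes near the bacterial controls (Tlr4, Siglec1, Marco, Vsig4), signal over background limits what can be seen.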

Other observations

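A second probe set of Ctsl, 1457724_at, followed the replicate number and not the group. It read 580 and 546 in replicate 1 and 200 and 189 in replicate 2 of the Ly49+ and Ly49- cells, while the brightest Ctsl probe set read between 872 and 1015 on the 4 arrays. Among the spiked bacterial controls, the older BioB 3' probe set read 702 on the Ly49- array 1 array and 2750 to 3084 on the other arrays, whereas the newer probe set of the same spike read 2833 to 3111 on all 4. These probe sets were chosen after their values were seen.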
